A study of Rattus norvegicus with 12 samples.

Results

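The genes described here make, break down and sense prostaglandins: the cyclooxygenases Ptgs1 and Ptgs2, the terminal synthases Ptges and Ptgds, the dehydrogenase Hpgd, and the receptors Ptger2, Ptger3, Ptger4, Ptgfr and Ptgdrl. They were chosen by name, as the probes whose gene name in the array files is one of these 10, out of 26583 gene names on the array. The files write the prostaglandin D2 receptor as Ptgdrl, and its probes carry accessions that RefSeq lists as Ptgdr. The 10 genes had 14 probes, of which 5 were well above background on all 12 arrays and 1, that of Ptgfr, on none.

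Prostaglandins are lipid signals made from arachidonic acid. Cyclooxygenases turn arachidonic acid, which phospholipases release from membranes, into an unstable intermediate, from which terminal synthases make PGE2, PGD2, PGF2α or prostacyclin. The dehydrogenase Hpgd inactivates some of them, PGE2 included, and each prostaglandin acts through its own G protein-coupled receptors. PGE2 is well known in the cervix as an agent of ripening, the softening that precedes birth.

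Expression was measured in cells dispersed with collagenase from the cervix of 12 Sprague Dawley rats, perfused with saline, with 1 rat on each 1-colour Agilent array and 3 rats in each of 4 groups. D21 rats were at day 21 postbreeding, the day before expected birth, and NP rats were nonpregnant and in proestrus by vaginal smear. Whole cervix is the cell suspension as dispersed. Mφ-depleted cervix is the suspension of other rats of the same stage after macrophages (Mφs) were bound by the ED1 antibody and removed on magnetic beads, so that depleted cells also went through incubation, washing and bead steps that whole cells did not. The rats were adult, with no age in numbers given in the sources used here, and the labels name no genetic change. Each rat is named by its number, which is shared by no rat of the group it is compared with. A level is a log2 value on which 0 marks the 75th percentile of the signals on the same array and a difference of 1 is 2-fold. A gene is read by its brightest probe, and levels of different probes are not set against each other.

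Between 44.9% and 61.7% of probes were well above background on an array, lowest on that of Mφ-depleted NP rat 7. Scanning took 3 days and 4 slides. The D21 whole arrays were all on slide 2, and depleted D21 rats 1, 2 and 4 were on slides 4, 3 and 1. A fit with slide as a term therefore links these 2 groups only by way of the NP arrays. All 6 whole arrays were scanned on the same day, and of the depleted arrays only D21 rat 4 and NP rat 7 were. These 2 depleted arrays also stood apart from their groups: 424 and 358 genes were over 4-fold above both other rats of the group, against 63 to 163 genes for each of the other depleted rats. Below both others they had 374 and 74 genes, against 24 to 184, so that NP rat 7 did not stand apart in that direction. Among whole arrays, NP rat 9 stood apart, with 168 genes over 4-fold above both other rats and 243 below, against at most 92 and 39 for any other whole rat. The means of 10 smooth muscle, 10 fibroblast and 10 epithelial markers lay at 3.62 to 4.84, 3.75 to 4.14 and 2.85 to 4.43 over the 6 whole rats, so that the main cell types of a cervix were present. A bulk array cannot tell fewer cells of a type from less RNA per cell.

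The stretches of transcript that the probes read show what each value reports. The 2 probes of Ptgs1 start 14432 bases apart in the rn4 build (chr3:15350683-15350742 and chr3:15365115-15365174, plus strand), and the 3 of Ptgdrl lie within 6956 bases (chr15:19345867-19345926, chr15:19346122-19346181 and chr15:19352823-19352882, plus strand). No gene models of rn4 were used here, so that exons are not assigned. Printed 5′ to 3′ are the dimmer Ptgs1 probe, whose values part from those of the brightest, the probe of Ptger4 (chr2:54423296-54423355, minus strand), and 2 probes of Ptgdrl, of which only the first was detected in NP rats.
Ptgs1 A_64_P375942: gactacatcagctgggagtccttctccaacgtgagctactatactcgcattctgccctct
Ptger4 A_44_P454281: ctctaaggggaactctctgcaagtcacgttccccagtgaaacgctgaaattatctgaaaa
Ptgdrl A_64_P158824: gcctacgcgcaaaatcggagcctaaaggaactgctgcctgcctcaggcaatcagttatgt
Ptgdrl A_64_P158822: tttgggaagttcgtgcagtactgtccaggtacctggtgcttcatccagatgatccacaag

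**Figure D1:**
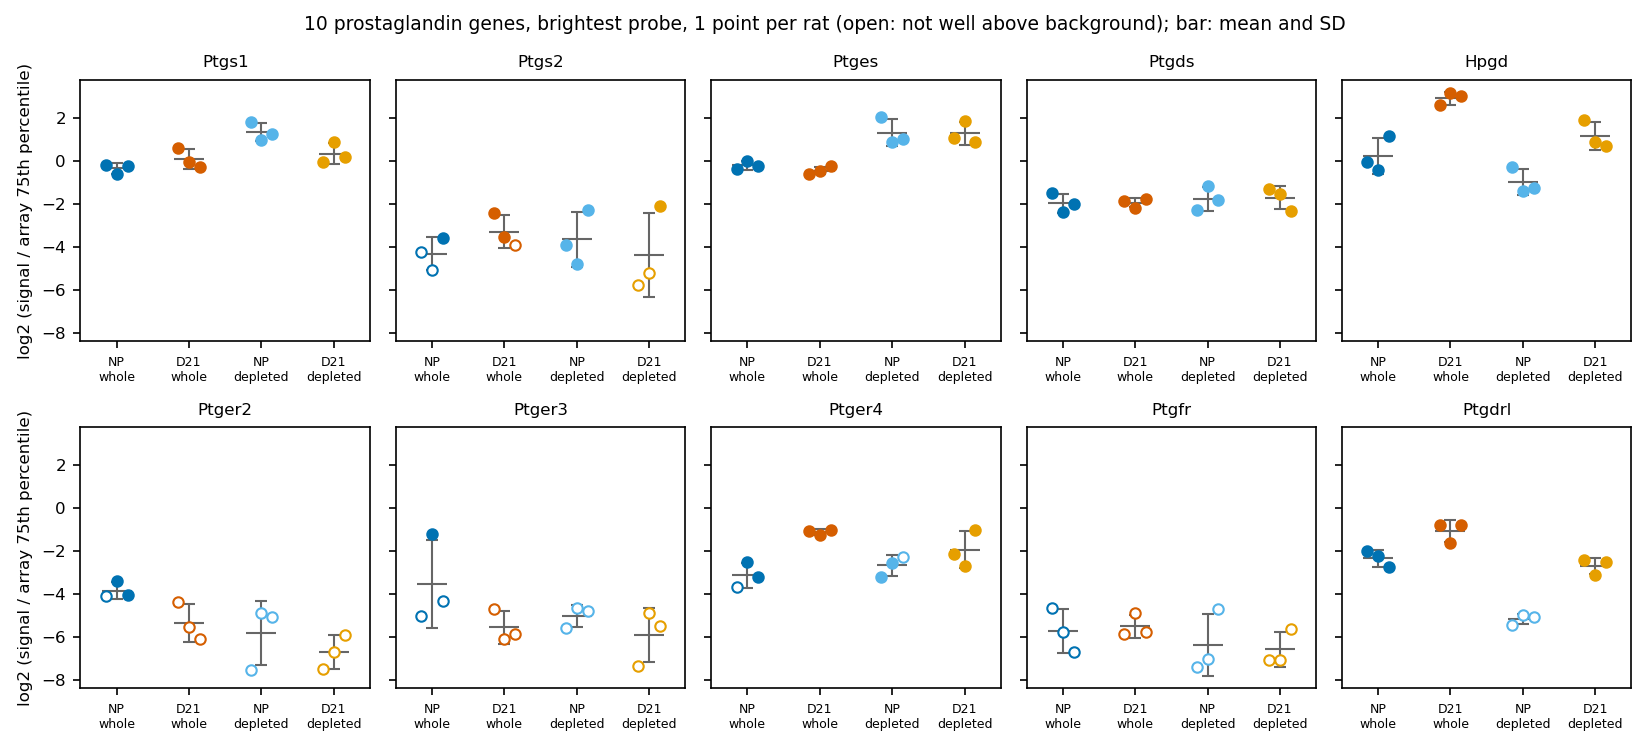
Level of each of the 10 genes by its brightest probe (y axis, log2 of signal over the 75th percentile of the array) in the 4 groups, 1 point per rat, with mean and SD (n = 3 rats); open points were not well above background. Hpgd and Ptgdrl were highest in D21 whole cervix, and Ptges was higher in Mφ-depleted than in whole cervix at both stages. Ptgs1 was highest in Mφ-depleted NP cervix, and Ptger2, Ptger3 and Ptgfr lay mostly near background.

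The first comparison asked how the pathway differed in whole cervix on the day before birth. Of the 6 genes that could be tested, 3 were higher in D21 rats and none was lower: the breakdown enzyme Hpgd and the receptors Ptger4 and Ptgdrl. Ptger4 could be tested only because every D21 array detected it, as not every NP array did. Ptger2, whose signal was higher in NP rats, was not detected on every array of either group and was not tested. Over all 15983 probes tested, 8.51% were called, 5.64% higher and 2.87% lower, where a call needs a difference of 2-fold or more and, before adjustment, a p below 0.01. The median log2 difference was 0.84 over the 6 genes and -0.06 over all probes tested. Read by its brightest probe, none of the 3 was called by the methods' t-test, adjusted or not. The adjusted p of that test was 0.147 for Hpgd, 0.149 for Ptger4 and 0.160 for Ptgdrl, and each unadjusted p was below 0.05. Its values for the other Ptgdrl probes are not given here. Cell type markers moved in the same comparison: 7 of 10 epithelial markers were called higher at D21, their mean level being 4.04 to 4.43 in D21 and 2.85 to 3.12 in NP rats, and 4 of 10 smooth muscle markers were called lower, at 3.62 to 4.04 against 4.40 to 4.84. Their part in the result was not tested.

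Hpgd was at levels of 2.57, 3.14 and 2.98 in D21 whole rats 5, 6 and 7. In NP whole cervix it was at -0.04, -0.44 and 1.16 in rats 8, 9 and 10. The 2 groups did not overlap, and NP rat 10 came nearest to the D21 rats. The difference was 6.37-fold, a log2 difference of 2.67 with a 95% interval of 1.66 to 3.69 (limma, adjusted p = 0.011). Within slide 2, which held all D21 rats but only NP rat 10, it was 1.74. With slide as a fixed term the difference rests on that same comparison, so that its 1.74, still called (adjusted p = 0.149), is not a second check. Without NP rat 9 the difference was 2.34 (adjusted p = 0.021).

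Ptger4, the EP4 receptor of PGE2, which raises cyclic AMP, was at -1.06, -1.26 and -1.04 in D21 rats 5, 6 and 7. In NP rats 8, 9 and 10 it was at -3.65, -2.51 and -3.21, and rat 8 was not well above background. The D21 rats were close to each other and all above the NP rats. The difference was 4.01-fold, a log2 difference of 2.00 with a 95% interval of 1.06 to 2.95 (limma, adjusted p = 0.024). It was 2.09 within slide 2 and therefore also with slide as a fixed term (adjusted p = 0.131), and 2.31 without NP rat 9 (adjusted p = 0.016). With normexp background correction it fell to 1.18 (adjusted p = 0.30) and was not called. A filter that asked for detection on every array compared left Ptger4 untested.

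Ptgdrl, the DP receptor of PGD2, was at -0.78, -1.64 and -0.79 in D21 rats 5, 6 and 7 and at -1.98, -2.25 and -2.76 in NP rats 8, 9 and 10 by its brightest probe. The groups did not overlap, though D21 rat 6 came near NP rat 8. The difference was 2.40-fold, a log2 difference of 1.26 with a 95% interval of 0.56 to 1.96 (limma, adjusted p = 0.043). It was 1.69 within slide 2 and therefore also with slide as a fixed term (adjusted p = 0.136), and 1.3 without NP rat 9 (adjusted p = 0.066). Besides the methods' t-test, the call was lost without NP rat 10 (1.05, adjusted p = 0.14), without D21 rat 5 (1.12, adjusted p = 0.15), without D21 rat 7 (1.12, adjusted p = 0.20) and with normexp background correction (0.90, adjusted p = 0.55).

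The other probes of Ptgdrl were also called higher at D21. A_64_P158822 was at -2.66, -3.90 and -2.52 in the D21 rats, and A_64_P105645 at -2.79, -3.65 and -2.70. Both were well above background on all 3 D21 arrays and on no NP array, so that only a bound can be given. D21 was at least 1.99-fold higher for A_64_P158822 and at least 1.96-fold for A_64_P105645, each short of 2-fold. Their calls (limma, adjusted p = 0.038 and 0.032) rest on NP signals at background and do not test the bounds. Both probes could be tested only because the D21 arrays detected them. For a bound, each array of the dimmer group enters with its detection limit, taken as the dimmest probe rated well above background there, or with the probe's own signal if that is higher. On all 3 probes D21 rat 6 was the lowest of the D21 rats.

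The synthesis genes that could be tested showed no called difference in whole cervix. Ptgs1, the constitutive cyclooxygenase, was at 0.58, -0.06 and -0.29 in D21 rats and at -0.18, -0.64 and -0.25 in NP rats, with a log2 difference of 0.43 and a 95% interval of -0.30 to 1.16. Ptges, the inducible synthase of PGE2, differed by -0.24 (interval -0.99 to 0.51), and Ptgds, the lipocalin-type synthase of PGD2, by 0.03 (interval -0.76 to 0.82). For each of these genes D21 and NP rats overlapped, and a missed threshold does not show equal levels. Ptges lay between -0.61 and -0.01 in all 6 whole rats, and Ptgds between -2.38 and -1.51.

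Ptgs2, the inducible cyclooxygenase, could not be tested in whole cervix. It was well above background in 2 of 3 D21 rats (-2.45 in rat 5 and -3.54 in rat 6) and in NP rat 10 (-3.60) alone of the NP rats. Ptger2, the EP2 receptor, was detected only in NP rats 9 and 10, at -3.38 and -4.05, and in none of the D21 rats. The mean of all NP rats was at least 1.33-fold higher if rat 8, at -4.10 and not well above background, is taken at its signal. Ptger3, the EP3 receptor, which lowers cyclic AMP, was well above background in NP rat 9 alone of all 12 rats, at -1.20 and -0.51 on probes that start 39465 bases apart. Ptgfr, the receptor of PGF2α, was detected in no rat.

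**Figure D2:**
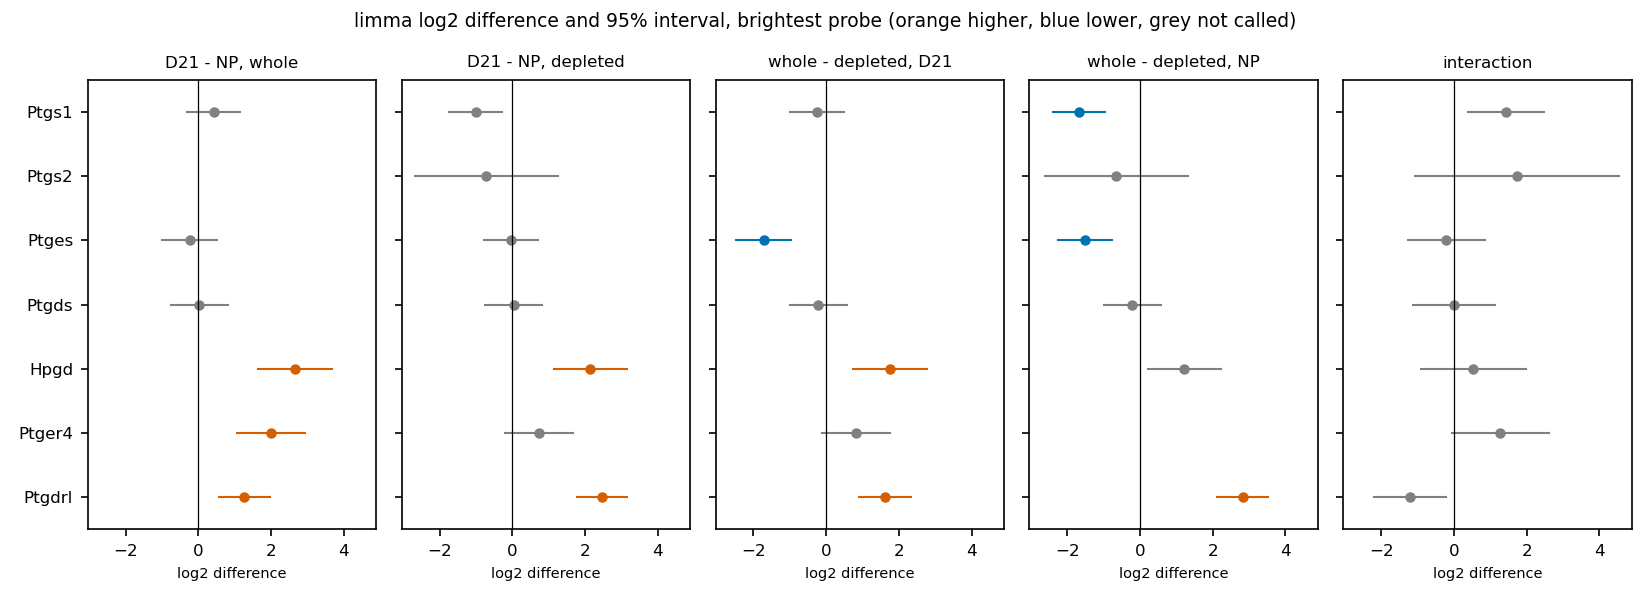
Log2 difference (point) and 95% interval (line) from limma for the genes that could be tested, by their brightest probe, in each of the 4 comparisons and for the interaction (x axis, log2 difference; vertical line, 0). Orange was called higher, blue lower and grey not called; Ptgdrl was well above background in no NP depleted rat, so that its points against that group rest on signals at background.

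The next comparisons set whole against Mφ-depleted cervix and asked which messages were lost or kept when the Mφs were taken out. They share the whole arrays with the first. At D21, Hpgd and Ptgdrl were higher in whole cervix and Ptges was lower, 3 of 6 genes tested, where 18.3% of all 16223 probes tested were called, 11% higher and 7.31% lower. In NP rats Ptgdrl was higher in whole cervix and Ptges and Ptgs1 were lower, 3 of 6 genes tested, against 24% of 15119 probes, 13.5% higher and 10.5% lower. The median log2 difference of the genes was 0.30 at D21 and -0.43 in NP rats, and over all probes tested it was -0.02 in both. The methods' t-test called none of the 3 at D21 and, in NP rats, Ptgdrl and Ptgs1 but not Ptges, and after adjustment Ptgdrl alone.

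Hpgd in Mφ-depleted D21 cervix was at 1.90, 0.87 and 0.69 in rats 1, 2 and 4. All were below the whole D21 rats, by 3.35-fold on average, a log2 difference of 1.75 with a 95% interval of 0.73 to 2.76 (limma, adjusted p = 0.024). The call was lost without depleted rat 2 (1.60, adjusted p = 0.083), depleted rat 4 (1.51, adjusted p = 0.039), whole rat 6 (1.62, adjusted p = 0.080) or whole rat 7 (1.71, adjusted p = 0.078). It was also lost with normexp background correction (1.35, adjusted p = 0.14) and with slide as a fixed term (0.89, adjusted p = 0.71). Whole and depleted D21 arrays shared no slide, so that the slide fit is not a comparison within slides. The difference from rat 4 alone, scanned on the same day, was 2.21. In Mφ-depleted NP cervix Hpgd was at -0.31, -1.38 and -1.29 in rats 5, 6 and 7. The log2 difference of whole from depleted NP cervix was 1.22 (interval 0.21 to 2.23, adjusted p = 0.064), and it was not called. It was called without whole NP rat 9 (1.55, adjusted p = 0.037) or depleted NP rat 5 (1.56, adjusted p = 0.039).

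By its brightest probe Ptgdrl was lower in depleted than in whole cervix at both stages. In Mφ-depleted D21 cervix its brightest probe was at -2.42, -3.12 and -2.52 in rats 1, 2 and 4, all below the whole D21 rats. The difference was 3.07-fold, a log2 difference of 1.62 with a 95% interval of 0.92 to 2.32 (limma, adjusted p = 0.0069), and 1.45 against rat 4, the depleted rat scanned with the whole ones. In Mφ-depleted NP cervix the probe was at -5.43, -4.98 and -5.06 in rats 5, 6 and 7 and not well above background in any. Whole NP cervix was at least 4.21-fold higher. The call itself (limma, adjusted p = 7.0e-05) rests on those signals at background and does not test the bound. The call at D21 was lost with normexp background correction (0.71, adjusted p = 0.50) and on arrays of 1 scan day (1.45, adjusted p = 0.12), and the call in NP rats was lost with normexp (1.22, adjusted p = 0.12) and with the mean of the 3 probes (1.38, adjusted p = 0.058). Of the other probes, A_64_P105645 was at least 3.1-fold higher in whole D21 cervix, and its call (limma, adjusted p = 0.030) rests on depleted signals at background. A_64_P158822 was not called (1.51, adjusted p = 0.12). In NP rats neither could be tested, as both were well above background on no NP array.

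**Figure D3:**
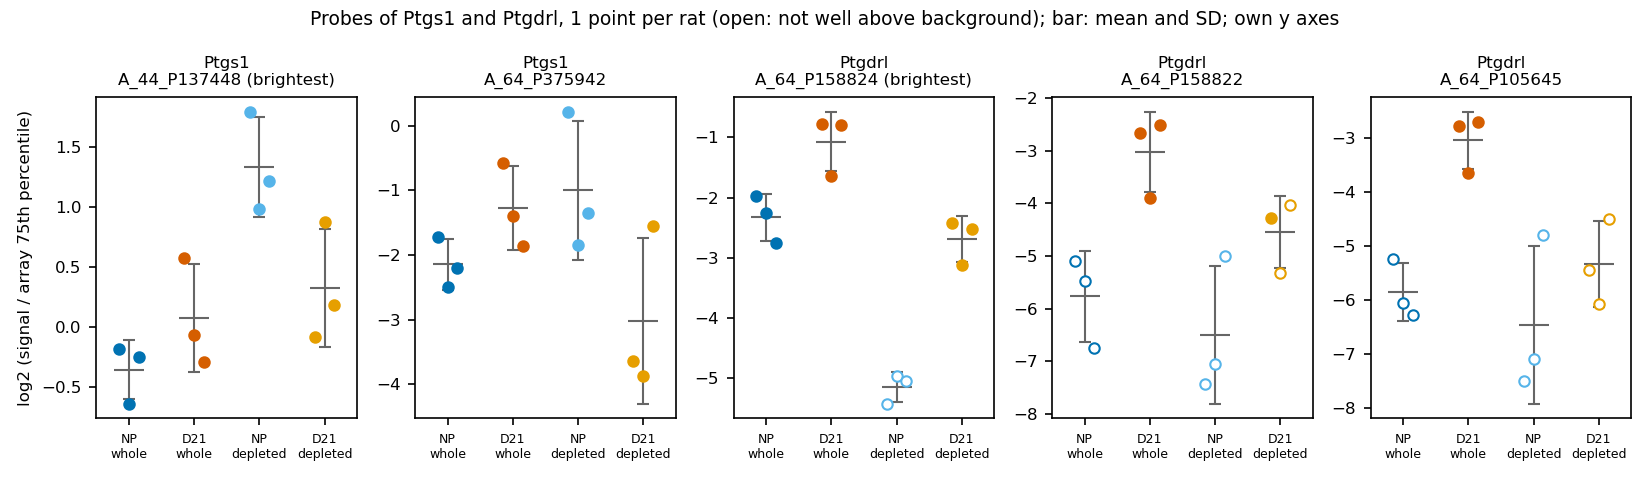
The 2 probes of Ptgs1 and the 3 of Ptgdrl in each group (y axes, level as log2 of signal over the 75th percentile of the array, each panel with its own range), 1 point per rat with mean and SD (n = 3 rats); open points were not well above background. All 3 Ptgdrl probes were highest in D21 whole cervix, while the 2 Ptgs1 probes part in Mφ-depleted D21 cervix, where A_64_P375942 was lowest in rats 1 and 2.

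Ptges ran the other way. In Mφ-depleted cervix it was at 1.05, 1.86 and 0.88 in D21 rats 1, 2 and 4 and at 2.01, 0.88 and 0.99 in NP rats 5, 6 and 7. In whole cervix it was at -0.61, -0.49 and -0.27 in D21 rats 5, 6 and 7 and at -0.38, -0.01 and -0.27 in NP rats 8, 9 and 10. No depleted rat overlapped a whole rat. Whole cervix was lower by a log2 difference of -1.72 at D21 (interval -2.47 to -0.96, adjusted p = 0.0072) and -1.51 in NP rats (interval -2.26 to -0.76, adjusted p = 0.0062). Among arrays scanned on the same day the differences were -1.33 at D21 and -1.20 in NP rats. With slide as a fixed term they were -1.41 (adjusted p = 0.52) and -1.03 (adjusted p = 0.13) and neither was called, though at D21 the groups shared no slide. With scan day as a fixed term the difference in NP rats was -1.05 (adjusted p = 0.070) and was not called.

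In NP rats Ptgs1 was lower in the whole than in the depleted suspension. The depleted rats 5, 6 and 7 were at 1.79, 0.98 and 1.21, all above the whole NP rats, and the log2 difference was -1.68 (interval -2.41 to -0.95, adjusted p = 0.0028). It was -1.62 within slide 1. At D21 the depleted rats 1, 2 and 4 were at -0.08, 0.87 and 0.19 and overlapped the whole rats, with a difference of -0.25 (interval -0.98 to 0.48). The brightest probe was printed in 10 spots on each array, and the SD between the spots kept was 0.05 to 0.14 log2, against 0.25 to 0.49 between rats of a group.

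The 2 probes of Ptgs1 did not move together. A_64_P375942 was at -3.65, -3.87 and -1.55 in depleted D21 rats 1, 2 and 4, and at -0.57, -1.40 and -1.86 in whole D21 rats 5, 6 and 7. Whole less depleted was 1.75 at D21 (interval 0.31 to 3.18, adjusted p = 0.072) and -1.15 in NP rats (interval -2.58 to 0.28, adjusted p = 0.20), and neither was called. Rat 4, scanned with the whole arrays, was within the whole rats, and rats 1 and 2, scanned on other days, were below all of them. The part of scan day in this value was not tested apart from rat.

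Ptgs2 was well above background on all 3 depleted NP arrays, at -3.91, -4.77 and -2.27, and in depleted D21 cervix in rat 4 alone, at -2.12. Its difference between whole and depleted NP cervix was -0.65 (interval -2.62 to 1.31), and with slide or scan day as a fixed term it was -2.69 (adjusted p = 0.018) or -2.33 (adjusted p = 0.022) and called lower in whole cervix. It rests on single rats, at 0.04 without depleted rat 7 (adjusted p = 0.98) and -0.26 without whole rat 9 (adjusted p = 0.87). Ptgds differed by -0.21 in both stages (intervals -1.0 to 0.58 at D21 and -1.0 to 0.57 in NP rats). Ptger4 was at -2.13, -2.69 and -1.0 in depleted D21 rats 1, 2 and 4, and whole less depleted was 0.82 (interval -0.13 to 1.76, adjusted p = 0.18). Without depleted rat 4 it was 1.29 (adjusted p = 0.020) and called, and against rat 4 alone it was -0.12.

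More than Mφ markers differed between whole and depleted cervix, and these values stand beside the results above. The mean level of 11 Mφ markers was 1.08 to 1.78 over whole rats and -3.99 to -2.91 over depleted rats, and 10 of 11 tested were higher in whole D21 cervix and 8 of 9 in whole NP cervix. In depleted cervix 3 of the 11 at D21 and 4 in NP rats were well above background on no array. Smooth muscle markers were at 3.62 to 4.84 in whole rats, 0.92 to 2.04 in depleted D21 rats and -0.09 to 0.40 in depleted NP rats. Fibroblast markers were at 3.75 to 4.14, 2.14 to 3.14 and -0.63 to 0.44 in the same order, and mast cell markers at -2.68 to -1.46, -4.91 to -4.37 and -5.01 to -3.63. The mast cell mean used 5 of 8 listed genes, and 5 of the list were well above background on no depleted D21 array. In NP rats 4 mast cell markers were tested, of which 3 were higher and 1 lower in whole cervix.

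The other lists went different ways. Epithelial markers were at 2.85 to 4.43 in whole rats and 4.30 to 5.06 in depleted rats, and the 13 immediate-early genes used, which cells switch on within minutes of stimulation, at -0.80 to -0.25 and 1.46 to 2.93. Endothelial markers were at -0.60 to 0.18 and -0.97 to -0.35, T and NK cell markers at -2.95 to -1.99 and -4.57 to -3.72, and neutrophil markers at -2.16 to -0.20 and -3.81 to -1.27. The part of any of these lists in the values of Hpgd, Ptgdrl, Ptges or Ptgs1 was not tested.

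**Figure D4:**
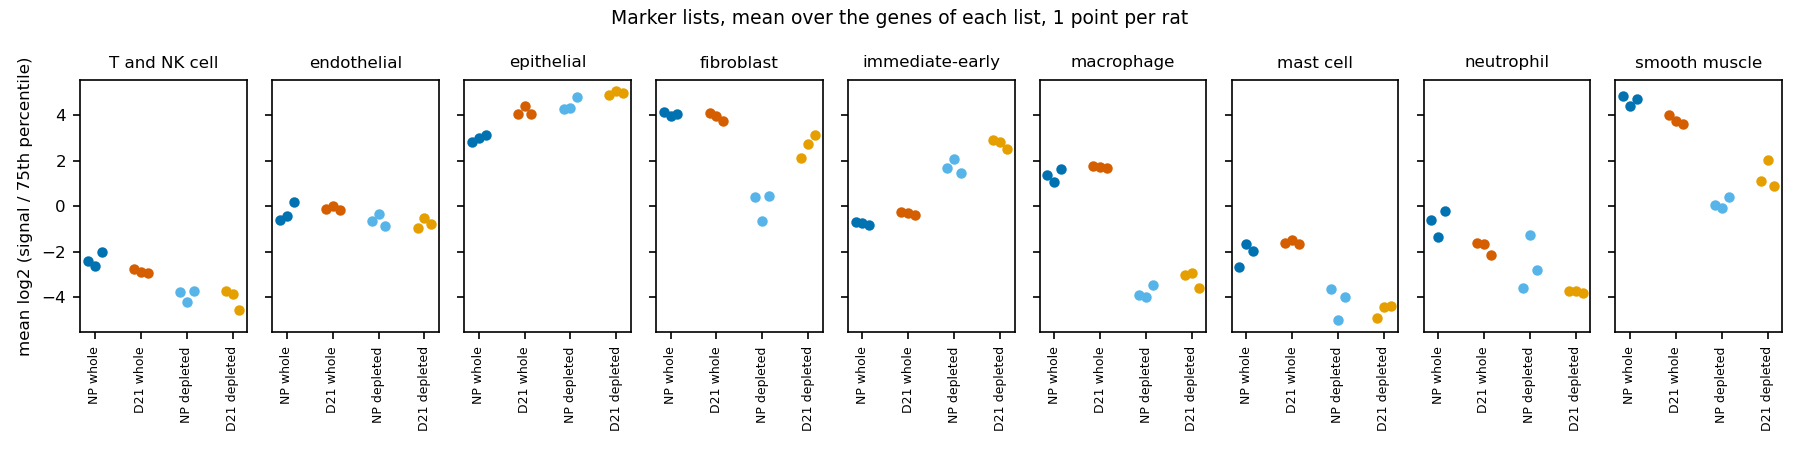
Mean level of each marker list (y axis, mean log2 of signal over the 75th percentile of the array) in the 4 groups, 1 point per rat. Means of the Mφ, smooth muscle, fibroblast, mast cell, and T and NK cell lists were lower in every depleted rat than in any whole rat. Immediate-early genes were higher.

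D21 was next compared with NP in Mφ-depleted cervix. Hpgd and Ptgdrl were higher at D21, 2 of 7 genes tested (Ptgdrl alone by the methods' t-test, and neither after adjustment), where 7.41% of 15144 probes tested were called, 5.28% higher and 2.13% lower. Hpgd was 4.43-fold higher, a log2 difference of 2.15 with a 95% interval of 1.14 to 3.16 (limma, adjusted p = 0.024). The depleted D21 rats (0.69 to 1.90) lay above the depleted NP rats (-1.38 to -0.31), and the difference was 1.98 within slide 1 and 1.71 within slide 3. On arrays of 1 scan day, 1 rat in each group, it was not called (adjusted p = 0.36). Ptgdrl, detected in all depleted D21 rats and in no depleted NP rat, was at least 3.29-fold higher. Its call (limma, adjusted p = 0.0016) rests on NP signals at background, and it was lost with normexp (1.42, adjusted p = 0.17). Fibroblast markers were also higher in depleted D21 than in depleted NP cervix (7 of 10 called), as were smooth muscle markers (6 of 8 tested), and their part in these differences was not tested.

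The direction for Ptgs1 was the opposite, without a call for its brightest probe. Depleted D21 less depleted NP cervix was -1.0 (interval -1.73 to -0.28, limma, adjusted p = 0.12), and the 2 groups did not overlap. It was called lower without depleted D21 rat 2 (-1.28) or depleted NP rat 6 (-1.18), and with quantile (-1.05) or detected-probe scaling (-1.16). With slide or scan day as a fixed term it was -0.73 (adjusted p = 0.37 and 0.32) and was not called. Its other probe was called lower, at -2.03 (interval -3.45 to -0.60, adjusted p = 0.11), but depleted D21 rat 4 lay inside the NP range. Within slides that probe differed by -0.20 on slide 1 and -3.05 on slide 3. Ptger4 differed by 0.73 (interval -0.21 to 1.66, adjusted p = 0.34), Ptgs2 by -0.72 (interval -2.68 to 1.25), Ptges by -0.03 (interval -0.78 to 0.72) and Ptgds by 0.03 (interval -0.75 to 0.82).

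The interaction asked whether depletion changed a gene by a different amount at D21 than in NP rats. None of the 7 genes tested was called by its brightest probe in limma, and 2 had an unadjusted p below 0.05, where 7.45% of 16557 probes were called, 2.74% above 0 and 4.71% below. These were Ptgs1, at 1.43 (interval 0.39 to 2.47, adjusted p = 0.14), and Ptgdrl, at -1.20 (interval -2.20 to -0.21, adjusted p = 0.18). The latter rests on signals at background in depleted NP rats. For Hpgd the interaction was 0.52 (interval -0.92 to 1.97). Its difference of whole from depleted cervix, called at D21 and not in NP rats, was thus not shown to differ between them. Ptger4 was at 1.28 (interval -0.07 to 2.62), and without depleted D21 rat 4 it was 1.74 (adjusted p = 0.041) and called.

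The levels of each gene in the 4 groups can be put in order. For Hpgd the means were 2.90 ± 0.29 in D21 whole, 1.15 ± 0.65 in D21 depleted, 0.23 ± 0.83 in NP whole and -0.99 ± 0.59 in NP depleted cervix (SD, n = 3 each). The middle pair overlapped and does not differ beyond its spread. For Ptgdrl the order was D21 whole (-1.07 ± 0.50), NP whole (-2.33 ± 0.40), D21 depleted (-2.69 ± 0.38) and NP depleted (-5.15 ± 0.24), and again the middle pair overlapped. Ptger4 ran from D21 whole (-1.12 ± 0.12) through D21 depleted (-1.94 ± 0.86) and NP depleted (-2.67 ± 0.47) to NP whole (-3.12 ± 0.58), and each neighbouring pair overlapped.

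For Ptges the order followed depletion. It was at 1.29 ± 0.63 in NP depleted and 1.26 ± 0.52 in D21 depleted cervix, which overlapped, and at -0.22 ± 0.19 in NP whole and -0.46 ± 0.18 in D21 whole cervix, which also overlapped. Ptgs1 was at 1.33 ± 0.42 in NP depleted, 0.32 ± 0.49 in D21 depleted, 0.08 ± 0.45 in D21 whole and -0.35 ± 0.25 in NP whole cervix, and only the first pair of neighbours did not overlap. On its other probe D21 depleted cervix was lowest, at -3.02 ± 1.28. Ptgs2 had its highest mean in D21 whole (-3.29) and its lowest in D21 depleted cervix (-4.37), not all of it well above background, and its groups overlapped. Ptgds stayed between -1.97 ± 0.43 and -1.73 ± 0.53, and no pair of its groups was apart. For the 4 genes detected on all 12 arrays by their brightest probe, the genes with the most similar pattern over the 12 arrays among 10904 such probes were listed as a description. They included Hpcal1 (Pearson r = 0.95) and Pgm1 (0.94) for Hpgd, Dapl1 (0.97), Nat15 (0.96) and Gatsl3 (0.96) for Ptges, and Znf668 (0.94), Rangap1 (0.92) and Gpn2 (0.92) for Ptgs1. No gene reached 0.78 with Ptgds, where RGD1564964 and LOC681414 followed an unnamed probe at 0.77 and 0.76. The 12 arrays share slides, scan days and the depletion step.

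The 33 other genes of the pathway were read in the same way. In whole cervix 1 of 26 tested was higher at D21 and 1 was lower, 7.69% against 8.51% of all probes. Pla2g2a, a secreted phospholipase that frees fatty acids from membranes, was at 3.81, 4.01 and 4.15 in D21 rats and 1.01, 1.56 and 1.75 in NP rats, 5.84-fold higher (limma, adjusted p = 0.046). Pla2g7, which hydrolyses platelet-activating factor, was 3.21-fold lower (adjusted p = 0.091), though NP rat 9 at -1.42 lay inside the D21 range. In depleted cervix 4 of 26 were called, 15.4% against 7.41% of all probes. Pla2g2a was again higher at D21 (11.5-fold, adjusted p = 0.012), with Pla2g5, another secreted phospholipase (4.92-fold, adjusted p = 0.031), and Ptgis, the prostacyclin synthase (4.23-fold, adjusted p = 0.023). Pla2g4b, a cytosolic phospholipase, was 4.49-fold lower (adjusted p = 0.045).

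Between whole and Mφ-depleted cervix, 3 of 27 genes were called at D21 and 6 of 26 in NP rats, 11.1% and 23.1% against 18.3% and 24% of all probes. Ptgis was higher in whole cervix by a log2 difference of 2.11 at D21 (interval 1.14 to 3.08, adjusted p = 0.0089) and 5.13 in NP rats (interval 4.16 to 6.10, adjusted p = 1.1e-05). It was at -4.06, -3.24 and -5.17 in depleted NP rats 5, 6 and 7, the last not well above background, and at 0.89, 1.35 and 0.67 in whole NP rats. Akr1b1, an aldo-keto reductase with prostaglandin F synthase activity, was higher in whole cervix at D21 (2.99-fold, adjusted p = 0.0055) and in NP rats (4.71-fold, adjusted p = 2.1e-04). Slco3a1, a transporter that carries prostaglandins, was lower in whole cervix at D21 (3.03-fold, adjusted p = 0.0039) and in NP rats (2.38-fold, adjusted p = 0.0059). In NP rats alone Tbxas1, the thromboxane synthase, Pla2g7, and Ptgir, the prostacyclin receptor, were called higher in whole cervix, at 5.36-fold, 4.42-fold and 2.31-fold (adjusted p = 0.00635, 0.010 and 0.032). None of these 3 had a called interaction.

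**Figure D5:**
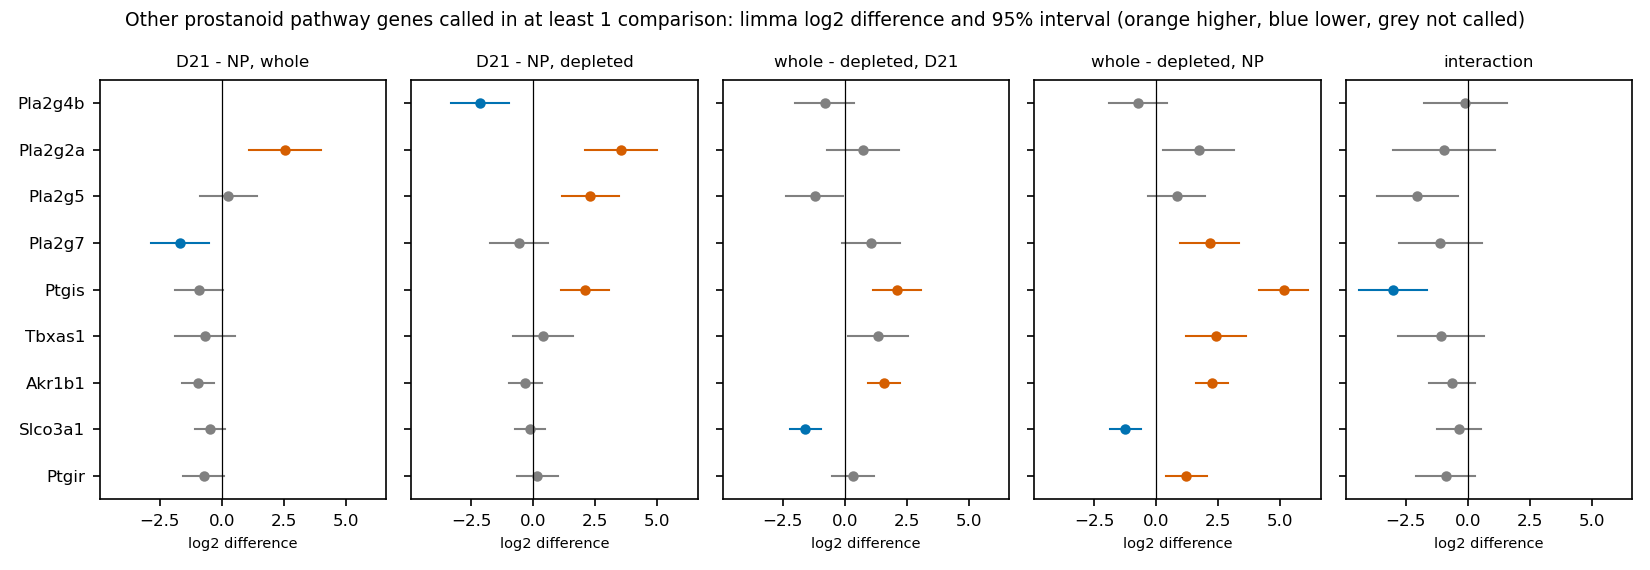
Log2 difference (point) and 95% interval (line) from limma for the 9 other prostanoid pathway genes called in at least 1 comparison, in each of the 4 comparisons and for the interaction (x axis, log2 difference; vertical line, 0); orange was called higher, blue lower and grey not called. Pla2g2a was higher at D21 in both kinds of cervix, and Ptgis was higher in whole cervix at both stages.

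Hpgd, Ptger4 and Ptgdrl were the members higher at D21 in whole cervix, and the 250 bases upstream of their RefSeq start sites are shown for that reason (GRCr8 build). They lie at chr16:39034832-39035081, minus strand, chr2:56073523-56073772, minus strand, and chr15:19790249-19790498, plus strand. All 10 genes were found in the RefSeq promoter table, and each window was searched on both strands for AGAACA, a half-site of progesterone and glucocorticoid receptors, AGGTCA, a half-site of oestrogen and other nuclear receptors, TGACTCA (AP-1), TGACGTCA (CRE), an NF-kB motif, TATAAA and CCAAT. Capitals mark the letters found.
Hpgd: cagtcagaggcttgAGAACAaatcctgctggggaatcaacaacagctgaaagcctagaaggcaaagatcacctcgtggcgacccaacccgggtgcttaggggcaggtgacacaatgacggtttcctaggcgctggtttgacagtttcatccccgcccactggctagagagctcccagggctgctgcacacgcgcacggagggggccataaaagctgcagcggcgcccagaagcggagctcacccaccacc
Ptger4: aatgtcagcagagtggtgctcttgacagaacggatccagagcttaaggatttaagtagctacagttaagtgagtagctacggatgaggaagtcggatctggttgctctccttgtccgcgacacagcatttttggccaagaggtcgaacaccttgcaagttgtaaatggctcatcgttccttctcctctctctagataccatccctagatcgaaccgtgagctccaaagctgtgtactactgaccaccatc
Ptgdrl: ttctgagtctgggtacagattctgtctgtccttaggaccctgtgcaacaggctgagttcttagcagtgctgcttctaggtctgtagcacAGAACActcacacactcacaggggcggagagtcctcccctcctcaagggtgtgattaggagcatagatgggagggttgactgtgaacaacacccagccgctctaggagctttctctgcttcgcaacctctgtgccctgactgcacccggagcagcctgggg

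AGAACA lay 236 bases upstream of the start in Hpgd and 161 bases upstream in Ptgdrl, and it is held by 17.5% of the 33469 promoters in the table. None of the 7 motifs was in the window of Ptger4. Of the other members, the window of Ptges also held AGAACA. That of Ptgds held TGACCT, the reverse complement of AGGTCA, which 14.1% of promoters hold. That of Ptgs2 held ATTGG, the reverse complement of CCAAT, which 34.0% hold. TGACTCA, TGACGTCA, the NF-kB motif and TATAAA, held by 4.05%, 1.59%, 0.0956% and 12.9% of promoters, were in none of the 10 windows. A match is a run of letters, not a site shown to be used.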

How the data were processed

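RNA of 1 rat was hybridised to each 1-colour Agilent array, in 4 groups of 3 rats taken from the labels of the samples. The authors deposited the scanner intensity of each spot, made with Agilent Feature Extraction 9.5.3.1 with its background subtracted and detrended and no normalization between arrays, and a table of ratio values, made by dividing intensities by the 75th percentile on that array. The ratio table was used as an alternative.

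Control spots and spots rated as outliers were left out (294 to 648 for an array), spots of a probe were averaged, and log2 intensities were centred on the 75th percentile of each array. A probe was tested if every array of 1 or more of the groups compared rated it well above background. Tests were made in R 4.3.3 with limma 3.58.1 on group means in 1 fit of all 12 arrays, without covariates. A call is an unadjusted p below 0.01 and at least 2-fold, the threshold of the Methods, and Benjamini-Hochberg adjusted p-values over all probes tested are given beside it. The fit was tested on simulated data only for D21 against NP whole cervix, with the same spread for all probes. That spread came from the D21 whole arrays, so that the spread of depleted arrays was not covered. The number of arrays limits the precision, and the smallest p of an exact permutation test of 3 against 3 rats is 0.1. Whether rats of a group were bred or handled together is not stated, so that p-values measure only the spread between these samples.

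The members, the 33 other pathway genes and the marker lists (Mφ, smooth muscle, fibroblast, epithelial, endothelial, mast cell, neutrophil, T and NK cell, immediate-early) were chosen with earlier results of these data known. Named are all members with all probes, other pathway genes that were called, and for members detected on all arrays the 3 genes with the highest correlation, of which 1 is not reported here. Alternatives were the methods' t-test (Welch's), the adjusted threshold, fits on the 2 groups compared, normexp, quantile and detected-probe scaling, 2 filters, the mean of probes, slide or scan day as a term, array weights, the ratio table and leaving out each rat, and, chosen after seeing the data, 1 probe for each gene and arrays of 1 scan day. Tables and plots were made with Python 3.11.15, numpy 2.4.6, pandas 2.3.3 and matplotlib 3.10.9. Positions of probes are those of the array files (rn4), and promoters are from RefSeq (GRCr8).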

Additional observations from a re-analysis of the deposited data

Results flagged for a closer look

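The interaction in limma was called, at the unadjusted threshold, for 1 probe of a member and for 1 other pathway gene. For the dimmer Ptgs1 probe, A_64_P375942, whole less depleted cervix was 1.75 at D21 and -1.15 in NP rats, and these differed by 2.90 on the log2 scale (95% interval 0.85 to 4.94, adjusted p = 0.13). On this probe depleted D21 rats 1 and 2, scanned on other days, were at -3.65 and -3.87. Depleted D21 rat 4, scanned with the whole arrays, was at -1.55, within the whole D21 rats. The brightest Ptgs1 probe gave 1.43 and was not called. For Ptgis, whole less depleted cervix was 2.11 at D21 and 5.13 in NP rats, a difference of -3.02 (interval -4.40 to -1.63, adjusted p = 0.034). In depleted NP cervix, where Ptgis was lowest, smooth muscle and fibroblast markers were also lowest, and their part in the difference was not tested.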

How the results depend on the processing

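No paired analysis was possible because the groups compared share no rat numbers, and the rats are different animals. Over 780 values of single members under the alternatives, 720 kept their call or lack of one, 38 lost a call, 22 gained one and none reversed. The main fits called 3 of 6, 3 of 6, 3 of 6, 2 of 7 and 0 of 7 members tested in the 4 comparisons and the interaction. Genes not called that stayed so are among the 720, which therefore do not measure how stable the calls are.

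On brightest probes, the methods' t-test called 0 members (3 in limma) between D21 and NP whole cervix and between whole and depleted D21 cervix. Adjustment did not change this, and the test gave 3 at an unadjusted p below 0.05 in each. In depleted cervix it called 1, and 0 after adjustment (2 in limma, and 2 by the t-test at p below 0.05), and after adjustment 1 of whole against depleted NP cervix (3 in limma). Normexp left 1, 1 and 1 in D21 against NP whole, whole against depleted D21, and D21 against NP depleted cervix. Slide as a fixed term left 1 member at D21, and a filter on every array or arrays of 1 scan day left 1 in depleted cervix. The interaction called 1 member with quantile scaling, detected-probe scaling, a filter on every array or the mean of probes, and 2 with array weights. Leaving out a rat gave 2 to 3, 2 to 3, 3 to 4, 2 to 3 and 0 to 1 members in the 4 comparisons and the interaction.

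For other pathway genes the t-test called 1 and 0 (adjusted) of whole D21 against NP, 0 of whole against depleted D21 (adjusted), 2 and 0 in NP, and 1 and 0 in depleted cervix. In D21 against NP whole cervix 1 was called with the adjusted threshold, quantile scaling or scan day as a term, and 7 with array weights. For whole against depleted D21 6 were called in a fit on 2 groups, 1 with slide as a term and 8 with array weights. A filter on every array left 2 in depleted cervix and 0 for the interaction, which had 3 with array weights and 4 on arrays of 1 scan day. Leaving out a rat gave 1 to 6, 3 to 4, 4 to 8, 4 and 1 to 3 in the same order.

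Detected-probe scaling moved the median of all probes to 0.17 for whole less depleted at D21 and -0.16 for D21 less NP depleted cervix, and the share of calls that were higher from 60.1% to 73.4% and from 71.3% to 56.7%. Normexp moved that share from 66.2% to 77.8% in D21 against NP whole cervix. Signal over background limits Ptgs2, Ptger2, Ptger3 and Ptgfr.

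Over all probes, limma called 1360, 2974, 3626, 1122 and 1234 in D21 against NP whole, whole against depleted D21, whole against depleted NP, D21 against NP depleted cervix and the interaction. The t-test called 574, 739, 1588 and 222 in the 4 comparisons, and 0, 14, 871 and 0 after adjustment. Normexp gave 622, 1133, 2285, 829 and 596. Array weights gave 2479, 5796, 3348 and 4194 in all but whole against depleted NP cervix, and slide as a term gave 814, 579 and 731 in D21 against NP whole cervix, whole against depleted D21 cervix and the interaction. Without depleted D21 rat 4, 5437, 2908 and 3252 were called in whole against depleted D21 cervix, D21 against NP depleted cervix and the interaction.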

Other observations

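Whole cervix of NP rat 9 differed from that of NP rats 8 and 10 in genes outside the pathway. Genes chosen after their values were seen show the pattern. Cornified epithelium genes were high in rats 8 and 10 and low in rat 9: Krt16 was at 5.72 and 5.57 against -4.04, Krt10 at 3.08 and 4.14 against -4.77, and Lor, the main protein of the cornified envelope, at 1.92 and 4.32 against -4.91. The defensin Defb4 was at 4.08 and 6.23 against -6.10. In the other direction, Cyp26a1, which breaks down retinoic acid, was at 2.57 in rat 9 against -4.73 and -6.42, Igfbp1 at 3.74 against -3.08 and -3.55, and Spp1, or osteopontin, at 2.26 against -2.55 and -2.36. Rat 9 was also the only rat with Ptger3 well above background, and Ptgr1, a reductase of prostaglandin metabolites, was at 0.90 in it against -1.85 and -1.22. The mean of the 10 epithelial markers did not set it apart, at 2.85 to 3.12 over the 3 rats.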
